A study of Mus musculus with 6 samples.

Results

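The 10 immediate early genes Fos, Fosb, Jun, Junb, Egr1, Egr2, Egr3, Ier2, Dusp1 and Nr4a1 were followed in mouse T cell acute lymphoblastic leukemia (T-ALL) after deletion of the transcription factor gene Zfx had been induced. They were chosen by name, as classic members of the class, with earlier results of these data known. They are 10 of the 19938 genes with a value here. Each had 1 probe set with a single annotated symbol. Tamoxifen arrays, labelled ZFX null, held sorted GFP-positive leukemia cells from recipients given 5 mg of tamoxifen a day by gavage for 3 days. Vehicle arrays, labelled ZFX flox, held such cells from recipients given vehicle. Both groups shared a retrovirally introduced active Notch (Notch-IC), a tamoxifen-inducible Cre-ER transgene and the conditional Zfx fl/y allele, and all cells grew in sublethally irradiated secondary hosts. Each of the 3 independent leukemias, lines 14843, 14844 and 14846, gave 1 array per group, so each group had 3 arrays. Dosing began 10 days after transplant and cells were taken 48 h after the last dose. The labels do not name the promoter of the Cre-ER transgene. No group received tamoxifen in cells lacking Cre or the floxed allele, so the drug, Cre and Zfx loss cannot be told apart here.

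Immediate early genes are transcribed within minutes of a stimulus without new protein synthesis. In T cells the main inputs are the Ras, ERK and JNK kinases and calcium, which act on serum response factor with its ternary complex partners and on CREB at the promoters of these genes. Their products include the FOS and JUN partners of the AP-1 transcription factor, the zinc finger EGR proteins, the nuclear receptor NR4A1 (Nur77) and the phosphatase DUSP1, which turns MAP kinases off again. In developing thymocytes Egr and Nr4a genes are known as readouts of pre-T cell receptor and T cell receptor signals. The transcripts are short-lived and also respond to the handling of cells.

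The promoters of the members were searched for the elements that these factors are known to bind. RefSeq promoters on GRCm38.p6 were given for 7 of the 10 genes, and the 250 bases before each start site were searched on both strands. Egr1, Egr3 and Ier2 were not searched, nor was sequence outside these windows, so an element there would be missed. The letters TGACG or their reverse complement CGTCA, the core of the cAMP response element bound by CREB, lay in 6 of the 7 promoters, namely Egr2, Fosb, Fos, Junb, Dusp1 and Nr4a1. They lay in 17.8% of all 32851 promoters of that length. The shares given are per promoter, while a gene with several start sites, such as Egr2, counted if any of them matched. The full element TGACGTCA, which holds the core on both strands, was found in Dusp1 and in 1.55% of promoters. The CArG box, the serum response factor element, was found in Egr2 and in 1.47% of promoters. An EGR element, GCGNGGGCG or its reverse complement, was found in Fosb and Nr4a1 and in 4.7% of promoters. The AP-1 element TGANTCA, at 6.75% of promoters, and the Zfx motif core AGGCCTNG, at 4.41%, matched 0 of the 7 in these windows. The TATAAA box of Fos was searched on the gene's own strand alone. Junb, with a TGACG core beginning 106 bases before its start site, is not shown. The following 5 are the others that carry these elements, which are in capitals, as is the TATAAA box. In the order printed, they lie at chr10:67537619-67537868 (plus strand), chr7:19310046-19310295 (minus strand), chr12:85473640-85473889 (plus strand), chr17:26508473-26508722 (minus strand) and chr15:101266596-101266845 (plus strand), each the stretch just before an annotated start site. Egr2 has 5 annotated start sites, and the one shown is at position 67537869.
Egr2: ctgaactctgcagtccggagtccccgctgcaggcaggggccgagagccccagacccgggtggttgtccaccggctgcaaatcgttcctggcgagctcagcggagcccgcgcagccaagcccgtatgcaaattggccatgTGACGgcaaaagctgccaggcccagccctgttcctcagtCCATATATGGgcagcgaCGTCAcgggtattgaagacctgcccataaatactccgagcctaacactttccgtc
Fosb: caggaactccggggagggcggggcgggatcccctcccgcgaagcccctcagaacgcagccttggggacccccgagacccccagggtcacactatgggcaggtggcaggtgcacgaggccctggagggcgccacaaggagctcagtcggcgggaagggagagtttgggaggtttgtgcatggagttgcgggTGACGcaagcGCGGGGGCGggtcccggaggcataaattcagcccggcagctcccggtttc
Fos: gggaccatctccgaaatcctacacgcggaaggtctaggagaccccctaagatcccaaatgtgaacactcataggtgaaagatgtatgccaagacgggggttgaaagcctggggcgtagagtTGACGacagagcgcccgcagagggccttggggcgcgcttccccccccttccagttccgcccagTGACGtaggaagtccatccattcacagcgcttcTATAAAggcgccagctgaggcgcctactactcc
Dusp1: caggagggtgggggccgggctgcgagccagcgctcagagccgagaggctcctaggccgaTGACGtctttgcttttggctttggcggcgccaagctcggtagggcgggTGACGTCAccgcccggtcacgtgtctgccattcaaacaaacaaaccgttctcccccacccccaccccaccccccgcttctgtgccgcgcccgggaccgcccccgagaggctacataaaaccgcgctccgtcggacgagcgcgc
Nr4a1: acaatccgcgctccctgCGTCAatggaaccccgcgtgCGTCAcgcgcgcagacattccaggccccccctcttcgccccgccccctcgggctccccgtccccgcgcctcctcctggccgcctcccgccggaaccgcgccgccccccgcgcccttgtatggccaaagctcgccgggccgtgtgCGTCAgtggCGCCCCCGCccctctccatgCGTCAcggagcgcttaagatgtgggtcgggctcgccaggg
The CArG box of Egr2 began 72 bases before this start site, with TGACG cores beginning at 111 and 55 bases before it. Fos had 2 such cores, beginning 129 and 66 bases before its start site, and Nr4a1 had 4, all read on the opposite strand.

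None of the immediate early genes passed the test between Tamoxifen and Vehicle arrays. Intensities normalised by RMA were taken to log2, and treatments were compared with limma with line as a block. Genes were called changed at a Benjamini-Hochberg adjusted p under 0.05 over all 13956 genes bright enough to test, and all 10 members were among these. Of the 10, 0 were called, while 870 of all tested genes were, or 6.23%, 182 of them higher and 688 lower. When arrays were instead centred on the median of the tested genes, a scaling added after the data were seen, 412 genes were higher and 562 lower, and 1 member, Egr1, was called. At an unadjusted p under 0.05, 3 members passed (Egr1, Egr2 and Fosb), all higher in Tamoxifen arrays, against 1467 tested genes that passed in that direction, or 10.5%. The fitted difference was above 0 for 9 of 10 members, and for 58.6% of tested genes. The median log2 difference was 0.09 over the members and 0.03 over all tested genes. Values of the groups did not overlap, with Tamoxifen higher, for Egr1, Fos and Fosb, and for 12.2% of tested genes. With Tamoxifen lower, 0 members and 11.5% of tested genes did not overlap. RNA of sorted cells was measured in bulk, so that a smaller share of expressing cells and less RNA per cell cannot be told apart.

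Egr1 and Egr2 of the EGR family, but not Egr3, held the largest fitted differences among the members. Egr1, a zinc finger transcription factor induced through ERK, was at 10.85, 10.74 and 10.53 log2 intensity in Tamoxifen arrays of lines 14843, 14844 and 14846, against 10.19, 10.25 and 10.44 in Vehicle arrays of the same lines. Every Tamoxifen array lay above every Vehicle array, and the gap within line 14846 was the smallest. The group means were 10.71 ± 0.16 in Tamoxifen and 10.29 ± 0.13 in Vehicle arrays (SD, n = 3 each). The fitted log2 difference was 0.42 ± 0.11 (SE), a 1.34-fold higher level with a 95% interval of 0.13 to 0.70, and limma's adjusted p was 0.10. With arrays centred on the median of the tested genes it was 0.48 with an adjusted p of 0.042, which crosses the threshold. Egr2, a close relative that acts in thymocyte selection, was at 8.54, 8.42 and 8.64 in Tamoxifen arrays, against 8.06, 7.996 and 8.60 in Vehicle arrays of lines 14843, 14844 and 14846. The groups overlapped, because the Vehicle array of line 14846 lay within the range of the Tamoxifen arrays while the other Vehicle arrays were low. The fit gave a log2 difference of 0.31 ± 0.10 (SE), with limma's adjusted p at 0.13. Egr3, which shares targets with Egr2 in T cells, was at 8.70, 8.61 and 8.65 in Tamoxifen arrays, against 8.63, 8.501 and 8.62 in Vehicle arrays. It was slightly higher with Tamoxifen in each line, but the groups overlapped, and the fitted log2 difference of 0.07 had a 95% interval of -0.06 to 0.20.

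**Figure D1:**
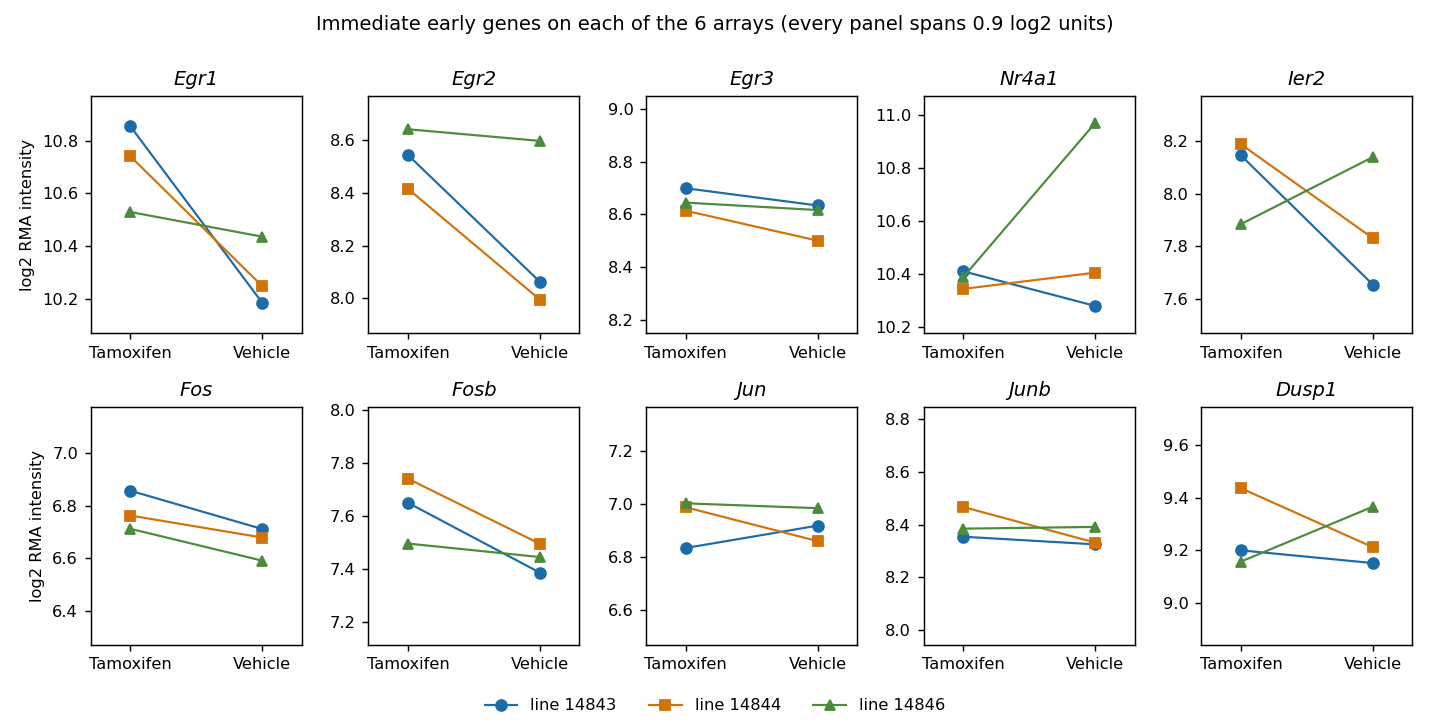
Each panel plots the log2 RMA intensity of 1 immediate early gene on the 6 arrays, Tamoxifen left and Vehicle right, with a line joining the arrays of each leukemia. For Egr1 every Tamoxifen array (10.53 to 10.85) lay above every Vehicle array (10.19 to 10.44), while Nr4a1 and Ier2 were lower with Tamoxifen in line 14846.

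The genes of the FOS proteins, which bind DNA mainly as partners of JUN proteins, gave small positive differences in each line. Fos was at 6.86, 6.76 and 6.71 log2 intensity in Tamoxifen arrays of lines 14843, 14844 and 14846, against 6.71, 6.68 and 6.59 in Vehicle arrays. The lowest Tamoxifen and the highest Vehicle array differed only in the third decimal, and the gene was dim, with levels around the brightness limit for testing, 6.70. The fit gave 0.12 ± 0.05 (SE) on the log2 scale, with limma's adjusted p at 0.23. Fosb was at 7.65, 7.74 and 7.496 in Tamoxifen arrays, against 7.39, 7.495 and 7.44 in Vehicle arrays of the same lines. Here too the lowest Tamoxifen and the highest Vehicle array differed only in the third decimal. The fit gave 0.19 ± 0.06 (SE), with limma's adjusted p at 0.16.

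The JUN genes showed no difference beyond the spread between arrays. Jun, the founding AP-1 subunit and the main substrate of JNK, was at 6.83, 6.99 and 7.003 log2 intensity in Tamoxifen arrays, against 6.92, 6.86 and 6.98 in Vehicle arrays of lines 14843, 14844 and 14846. It was lower with Tamoxifen in line 14843 and higher in the other lines, and its fitted log2 difference of 0.02 had a 95% interval of -0.13 to 0.17. Junb, a JUN relative that restrains Jun in several cell types, was at 8.35, 8.47 and 8.38 in Tamoxifen arrays, against 8.33, 8.33 and 8.39 in Vehicle arrays. The groups overlapped, and the 95% interval of its log2 difference was -0.09 to 0.19.

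For Nr4a1, Ier2 and Dusp1 the sign of the difference varied between lines. Nr4a1, the orphan nuclear receptor Nur77 that marks T cell receptor signalling, was at 10.41, 10.34 and 10.39 log2 intensity in Tamoxifen arrays of lines 14843, 14844 and 14846, against 10.28, 10.40 and 10.97 in Vehicle arrays. A single array, Vehicle of line 14846, stood apart from the other 5. The fit gave a log2 difference of -0.17 ± 0.14 (SE), with limma's adjusted p at 0.49. Ier2, a nuclear protein induced with Fos, was at 8.14, 8.19 and 7.88 in Tamoxifen arrays, against 7.66, 7.83 and 8.14 in Vehicle arrays. It was higher with Tamoxifen in lines 14843 and 14844 and lower in line 14846, which left a fitted log2 difference of 0.20 ± 0.15 (SE) and an adjusted p of 0.46. Dusp1, the phosphatase that inactivates p38, JNK and ERK, was at 9.20, 9.44 and 9.16 in Tamoxifen arrays, against 9.15, 9.21 and 9.37 in Vehicle arrays. Its fitted log2 difference was 0.02, with a 95% interval of -0.20 to 0.25.

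**Figure D2:**
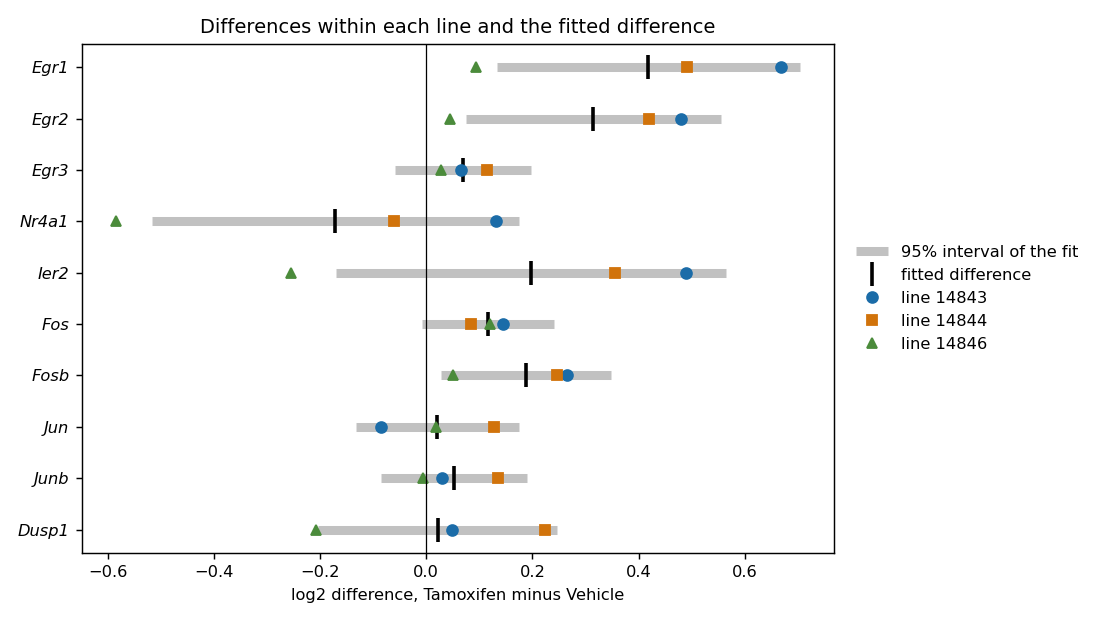
For each gene the log2 difference, Tamoxifen minus Vehicle, is plotted within each line (coloured symbols), with the fitted difference (black tick) and its 95% interval (grey bar). The intervals of Egr1, Egr2 and Fosb lay above 0 before adjustment for the number of genes, and line 14846 gave the lowest value for all genes but Fos and Jun.

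For several members the values in line 14846 stood apart from those in the other lines, on its Vehicle array, its Tamoxifen array or both. Within lines 14843 and 14844, 9 of 10 members were higher with Tamoxifen in each, with median log2 differences of 0.14 and 0.18. In line 14846, 6 of 10 were, with a median of 0.02. Over all tested genes the medians were 0.02 in each line, and 54.5% to 56.6% of genes were higher. Egr1 in line 14843 passed a log2 difference of 0.5, as did 2.15% of tested genes in that line, and Nr4a1 in line 14846 passed -0.5, as did 4.18%. The Vehicle array of line 14846 was the highest Vehicle array for 7 of 10 members, and for 35.1% of all tested genes. Its level was above the mean of the other Vehicle arrays by 0.63 for Nr4a1, 0.57 for Egr2, 0.40 for Ier2, 0.22 for Egr1 and 0.18 for Dusp1 on the log2 scale. Differences above 0.5 were seen for 3.57% of tested genes. The Tamoxifen array of line 14846 was the lowest Tamoxifen array for 5 of 10 members, and for 32.9% of all tested genes. Its level was below the mean of the other Tamoxifen arrays for Ier2, Egr1, Fosb and Dusp1, with log2 differences of -0.28, -0.27, -0.20 and -0.16, and above it by 0.16 for Egr2 and 0.01 for Nr4a1. Nr4a1 and Egr2 thus stood apart mainly on the Vehicle array, Egr1 and Ier2 on both, and Fosb on the Tamoxifen array. For Dusp1 the Vehicle array of line 14846 was the highest, but its Tamoxifen array (9.16) lay close to that of line 14843 (9.20). The Tamoxifen array of line 14844 was at 9.44. Among tested genes the Vehicle differences of Egr1 and Dusp1 lay only at percentiles 87.1 and 83.8. The SD of the 3 within-line differences had a median of 0.17 over the members and 0.10 over all tested genes, but the members were spread widely in it. Ier2, Nr4a1, Egr1, Egr2 and Dusp1 each lay above the 88th percentile of tested genes, Fosb and Jun at the 61st and the 55th, and Junb, Egr3 and Fos at the 35th, the 14th and the 8th.

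Without line 14846, Egr1, Egr2 and Ier2 passed the test and were higher in Tamoxifen arrays. That line had the lowest within-line difference for each of these 3 genes, so leaving it out had to raise their fitted differences. The log2 differences over lines 14843 and 14844 were then 0.58 ± 0.08 for Egr1, 0.45 ± 0.07 for Egr2 and 0.42 ± 0.07 for Ier2 (SE), with limma adjusted p-values of 0.024, 0.030 and 0.041. In that fit 3 of 10 members and 669 of 13956 tested genes were called, or 4.79% of all. Whether line 14846 differs from the others in its response was not tested, since each line had 1 array a group. Arrays that stand apart and a different response of that leukemia cannot be told apart. Without line 14843, 0 members and 3.57% of tested genes passed, and the log2 difference of Egr1 was 0.29. Without line 14844, 0 members passed, but so did only 70 of all tested genes, or 0.502%, and the log2 difference of Egr1 was 0.38.

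Single marker genes of other blood cells were high on the Vehicle array of line 14846, while other markers of those cells were not. The summed intensity of 15 of 16 monocyte and macrophage markers was 2604 to 3103 in Tamoxifen arrays, against 2426 to 4732 in Vehicle arrays, with the highest value in Vehicle of line 14846. Ly86 made up most of that excess, at 8.90 log2 intensity in Tamoxifen and 11.20 in Vehicle of line 14846, and between 6.18 and 6.34 on the arrays of the other lines. It was the only 1 of 8 bright markers of the list with its highest value there, and Lyz2 and Itgam, for example, were at 8.42 and 8.73 there, with Lyz2 at 8.69 in Vehicle of line 14844 and Itgam at 9.61 in Vehicle of line 14843. The defining markers Csf1r, Cd14, Adgre1, Mrc1, Fcgr1, Cd163 and Ccr2 were all below the brightness limit. The summed intensity of 9 of 10 B cell markers was 1191 to 1262 in Tamoxifen arrays, against 1071 to 1751 in Vehicle arrays, again highest in Vehicle of line 14846. Of its 6 bright markers Cd79b, Blk and Cd22 had their highest value there, while Pax5 and Vpreb1 did not and Igll1 was at its lowest of the 6 arrays, 6.83. Cd79a, Ms4a1 and Ebf1 were below the limit on average. Over all tested genes 19.5% had their highest value on that array. The part of these transcripts in the Nr4a1, Egr2 and Ier2 levels of that array was not tested. NK and cytotoxic markers summed to 7655 to 9032 in Tamoxifen arrays, against 5204 to 9463 in Vehicle arrays, also highest in Vehicle of line 14846. Of its 4 bright markers, Klrb1c and Nkg7 were highest there. Klrb1c was high on both arrays of that line, at 10.29 in Tamoxifen and 10.45 in Vehicle. Neutrophil, erythroid and stromal sums each peaked in a Tamoxifen array, but the groups overlapped. In that order they were 1708 to 3499, 798.5 to 875.1 and 7899 to 11680 in Tamoxifen arrays. Vehicle arrays were at 1652 to 2648, 799 to 822.9 and 8738 to 9610. Heat shock genes, which respond to the handling of cells, were mostly low on the Vehicle array of line 14846. For 7 of 11 it was the lowest Vehicle array, as for 34.6% of all tested genes. Hsph1, a chaperone, was at 9.86, 10.33 and 10.47 in Tamoxifen arrays of lines 14843, 14844 and 14846, against 11.15, 11.36 and 10.52 in Vehicle arrays. The part of handling in the members' levels was not tested.

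Nr4a1 had the widest range over the 6 arrays, 0.69 log2 units, so its pattern was matched against all other tested genes. Likeness was the root mean square difference between log2 profiles centred on their means. The 5 genes most like it outside the class were Tlr12, Atp13a2, Tk2, 1110032A03Rik and Aldh3b3, at 0.04 to 0.06 log2 units. Each was highest in the Vehicle array of line 14846, as Tlr12 was at 9.03 there and between 8.33 and 8.43 elsewhere. Since that array made most of the range of Nr4a1, the choice by likeness brought this with it. The other members were farther off, at 0.21 for Dusp1 to 0.34 for Egr1, ranks 2242 and 12422 by likeness among the tested genes.

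Between the 3 leukemias, averaged over treatments, 0 members differed by limma's moderated F test, against 434 of 13956 tested genes, or 3.11%. Egr2 alone had an unadjusted p under 0.05, as did 19.3% of tested genes. Its mean over both arrays of a line was 8.30 in line 14843, 8.21 in line 14844 and 8.62 in line 14846, with an adjusted p of 0.22. Nr4a1 was at 10.34, 10.37 and 10.68, with an adjusted p of 0.43, and the remaining members spanned at most 0.15 log2 units between lines. In order, lines 14844 and 14843 were neighbours for Egr2 and lines 14843 and 14844 for Nr4a1.

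Single genes of the kinase cascades that feed the class fell, among them both a JNK gene and the gene of a JNK activator. Of 22 tested genes of the ERK and JNK cascades, 4 fell and 0 rose, where 4.93% of all tested genes fell and 1.3% rose, and the median log2 difference was 0.02, against 0.03 over all tested genes. Map2k4, the kinase MKK4 that activates JNK and p38, was at 9.29, 9.71 and 9.68 log2 intensity in Tamoxifen arrays of lines 14843, 14844 and 14846, against 10.78, 10.72 and 10.81 in Vehicle arrays. The groups lay far apart, with a log2 difference of -1.21 ± 0.10 (SE) and a limma adjusted p of 0.0063. Mapk9, which encodes the JNK2 kinase, was at 10.59, 10.38 and 10.27 in Tamoxifen arrays, against 10.95, 10.73 and 10.83 in Vehicle arrays, with a log2 difference of -0.42 ± 0.06 and an adjusted p of 0.026. The gene of its close relative JNK1, Mapk8, named here after its values were seen, gave 0.26 ± 0.06 and an adjusted p of 0.061. Sos2 and Sos1, exchange factors that load Ras with GTP, fell with log2 differences of -0.67 ± 0.09 and -0.34 ± 0.05. Their adjusted p-values were 0.019 and 0.026. Mapk9 and Sos1 lost their calls without line as a block and whichever line was left out, at adjusted p-values of 0.0501 to 0.15, and Sos2 lost its call without line 14844, at 0.092. Of this list of 32 genes, 9 were not analysed here.

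In the list of feedback inhibitors of the MAP kinases, which also held Ras GTPase-activating proteins, 2 phosphatases fell and Rasa3 rose. Of 17 tested genes, 1 rose and 2 fell, with a median log2 difference of 0.13. Rasa3, a Ras GTPase-activating protein, was at 10.53, 10.27 and 10.67 in Tamoxifen arrays, against 9.93, 9.86 and 10.25 in Vehicle arrays of lines 14843, 14844 and 14846, a log2 difference of 0.48 ± 0.06 (SE) with a limma adjusted p of 0.017. Dusp16, a phosphatase that prefers JNK and p38, fell in each line, although the leukemias differed so much in its level that the groups overlapped. Its log2 difference was -0.56 ± 0.08, with an adjusted p of 0.022. Dusp7, a phosphatase of ERK, fell with a log2 difference of -0.48 ± 0.08 and an adjusted p of 0.029. None of these 3 passed without the block, with adjusted p-values of 0.17 to 0.39, or without line 14844, with 0.083 to 0.17. Dusp7 also lost its call without line 14846, at 0.064.

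Among the factors that act at the promoters of the class, 2 CREB coactivators fell. Of 18 tested genes of the ternary complex, CREB and MEF2 list, 2 fell and 0 rose, with a median log2 difference of -0.06. Crtc2, a coactivator that carries calcium and cAMP signals to CREB, was at 9.99, 10.10 and 10.24 in Tamoxifen arrays, against 10.47, 10.48 and 10.63 in Vehicle arrays of lines 14843, 14844 and 14846. The groups did not overlap, and limma gave a log2 difference of -0.42 ± 0.05 (SE) and an adjusted p of 0.016. Its paralog Crtc3 gave -0.65 ± 0.11 and an adjusted p of 0.032, and the third paralog, Crtc1, gave 0.05 ± 0.06. Crtc2 and Crtc3 lost their calls without the block, at adjusted p-values of 0.069 and 0.093, and without line 14844, at 0.11 and 0.12. Srf, which encodes serum response factor and is itself a primary response gene, gave -0.22 ± 0.05 with an adjusted p of 0.077.

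Relatives of the members and other primary response genes held 1 change. Of 11 tested AP-1 relatives 0 passed limma's adjusted threshold and 2 an unadjusted p under 0.05, with a median log2 difference of 0.06, and those with the smallest p were Jund at -0.20 ± 0.07 (SE) and the small MAF gene Mafg at -0.14 ± 0.05. Of 4 tested EGR and NR4A relatives and EGR corepressors 0 passed, and 1 at an unadjusted p under 0.05. Nab1 and Nab2, which bind EGR proteins and repress their activity, gave 0.19 ± 0.05 and 0.08 ± 0.05. Of 37 other tested primary response genes 1 rose and 0 fell, with a median log2 difference of -0.01. The gene that rose was Tiparp, an ADP-ribosyltransferase also known as a target of the aryl hydrocarbon receptor. It was at 9.93, 8.73 and 8.77 in Tamoxifen arrays, against 9.33, 8.09 and 7.89 in Vehicle arrays of lines 14843, 14844 and 14846, a log2 difference of 0.70 ± 0.07 with a limma adjusted p of 0.010. The difference held in each line, while the level in line 14843 exceeded that in the others in both groups. Without the block its adjusted p was 0.53, and without line 14844 it was 0.083. Without line 14843, 2 genes of this list were called.

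Among the T cell activation, transcript decay and heat shock lists, 1 gene was called. Of 22 tested T cell activation genes 0 passed, and 3 at an unadjusted p under 0.05, with a median log2 difference of 0.05, and Ikzf2, a T cell zinc finger factor, and Ppp3ca, a catalytic subunit of calcineurin, gave -0.32 ± 0.07 (SE) and 0.22 ± 0.07. In that list 1 gene passed after centring on the median of all probe sets, and also 1 with trend and robust moderation. Of 16 tested factors of transcript decay and polymerase pausing 0 passed, and 3 at an unadjusted p under 0.05, with a median of -0.02, and Hexim1, an inhibitor of the elongation kinase P-TEFb, and Elavl1, an RNA-binding protein that stabilises AU-rich transcripts, gave -0.22 ± 0.05 and -0.20 ± 0.06. Of 11 tested heat shock genes, which respond to the handling of cells as immediate early genes do, 1 fell and 0 rose, with a median of -0.17 and 10 of 11 values below 0. That gene was Bag3, a co-chaperone of Hsp70, at -0.996 ± 0.07 with a limma adjusted p of 0.0040, and of 0.073 without the block. Without line 14846, 3 heat shock genes were called. Of all tested genes, 58.6% had a log2 difference above 0. Over all 9 lists 158 genes were tested, and 2 rose and 9 fell, or 6.96%, close to the 6.23% of all tested genes.

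**Figure D3:**
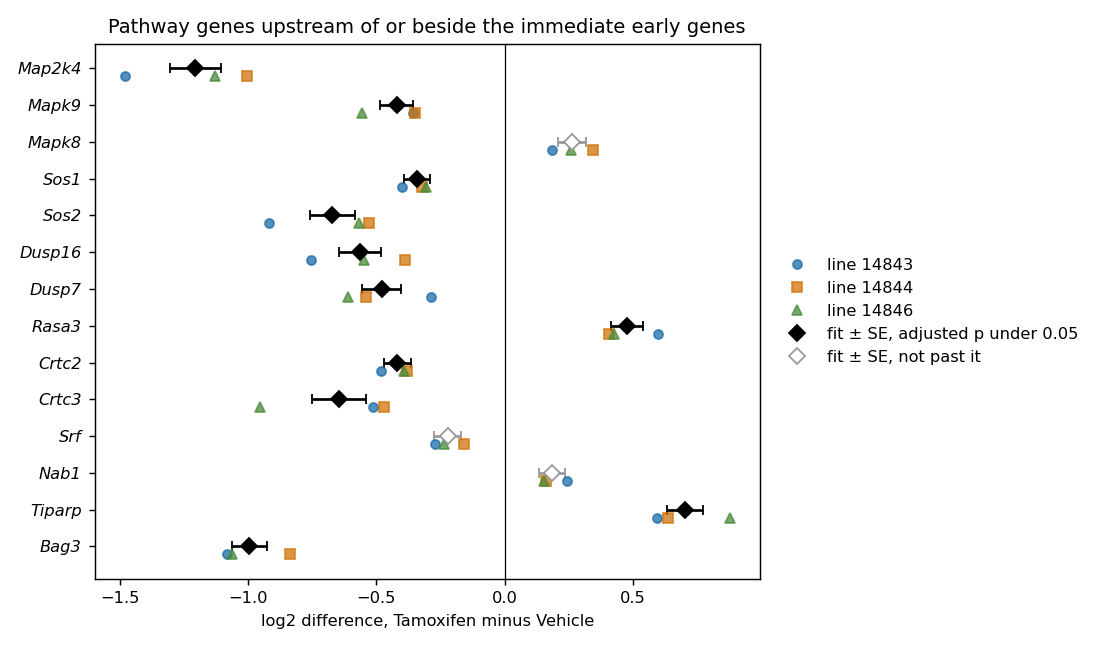
Log2 differences, Tamoxifen minus Vehicle, are plotted for 14 pathway genes, with diamonds for the fit ± SE and coloured symbols for each line. Map2k4 (-1.21) and Bag3 (-0.996) were lowest, Tiparp (0.70) was highest, and Mapk8, Srf and Nab1 did not pass the adjusted p of 0.05.

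Pairs of arrays correlated at 0.991 to 0.996 over the probe sets, and 18 of 19 T lineage markers had a value, all above the brightness limit. Their summed intensity was 88770, 87430 and 82340 in Tamoxifen arrays of lines 14843, 14844 and 14846, against 99560, 89050 and 87860 in Vehicle arrays, lower with Tamoxifen in each line. Of the 18, 16 had a log2 difference below 0, with a median of -0.09, while 58.6% of all tested genes lay above 0. Of the 18, 0 passed limma's adjusted threshold, where 4.93% of all tested genes passed and were lower. At an unadjusted p under 0.05, 4 passed, all lower. No share over all tested genes is given for this count. Nor is one given for the unadjusted counts of the relatives, T cell activation and transcript decay lists. The part of these T lineage markers in the members' values was not tested. The Zfx probe set itself was at 10.94 ± 0.06 log2 intensity in Tamoxifen and 10.87 ± 0.14 in Vehicle arrays (SD, n = 3 each), with a limma adjusted p of 0.48. Where its probes lie relative to the deleted part is not known here, so the labels were not checked by it and were taken as given.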

How the data were processed

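RNA of 6 samples was measured on one-colour Affymetrix arrays. The deposited values are RMA intensities on a linear scale, made by the authors with Affymetrix Expression Console 1.1, per the submitters' processing notes; RMA removes differences in overall signal between arrays. Arrays have no read depth, and their number limits the precision.

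The log2 of each of 35556 probe sets was taken, and the platform annotation gave 1 symbol for 21789. The probe set with the highest mean stood for a gene, leaving 19938 genes. Those at or above the 30th percentile of mean log2 intensity, 6.70, were tested, 13956 in all. The comparison of treatments used limma 3.58.1 under R 4.3.3 (lmFit, eBayes), with line as a block and 2 residual degrees of freedom, plus 3.47 from moderation. P-values were two-sided and Benjamini-Hochberg adjusted. Per the series design, both treatments were given to recipients of each line, and deviations from group means correlated at 0.64, 0.68 and 0.68 between arrays of a line. The fit was tested on simulated data.

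The members and the 9 pathway lists were chosen with earlier results of these data known. Of each list, called genes were named (at most 6), or else the 2 with the smallest p. Alternatives were no block, no filter, median centring (over all probe sets, and over tested genes), an offset of 16, eBayes with trend and robust, the mean of probe sets, and leaving out each line.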

Additional observations from a re-analysis of the deposited data

Results flagged for a closer look

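For 5 of the 10 immediate early genes the within-line differences had opposite signs, as they did for 51.2% of all tested genes. The highest and lowest within-line log2 difference between Tamoxifen and Vehicle lay 0.743 apart for Ier2, 0.715 for Nr4a1, 0.431 for Dusp1, 0.213 for Jun and 0.141 for Junb. Line 14846 was the one below 0 for Ier2, Dusp1 and Junb, and line 14843 for Jun. For Nr4a1 line 14843 was above 0 and the other two were below. The difference between lines was not tested, since each line had 1 array a group.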

How the results depend on the processing

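Over 10 alternatives, 93 of 100 differences of the 10 members kept their direction and their side of the adjusted p of 0.05. Much of the agreement in direction was fixed in advance. No block, no filter, and trend and robust moderation leave a fitted difference as it is and can change only its p-value. The mean of probe sets does so too, since each member had 1 probe set. Under 8 of the 10 alternatives 0 members were called. Without line 14846, 3 members were called, with log2 differences of 0.58 for Egr1, 0.45 for Egr2 and 0.422 for Ier2. That line gave the lowest within-line difference for each of these genes. With arrays centred on the median of the tested genes, which moved the median difference of all tested genes to 0.08 from 0.03 without centring, 1 member was called, Egr1 at 0.477. This setting was chosen after seeing the data. It also called 674 genes between lines. Leaving out a line in turn gave ranges of 0.293 to 0.58 for Egr1, 0.232 to 0.45 for Egr2 and 0.0511 to 0.422 for Ier2. Differences near 0 changed sign: Jun at -0.0331 and Dusp1 at -0.0798 without line 14844, and Nr4a1 at 0.0349 without line 14846. Their ranges over the lines left out were -0.0331 to 0.0733, -0.0798 to 0.136 and -0.323 to 0.0349. The cause was not tested. The count of all called genes was 295 without line as a replicate block and 70 to 669 with a line left out, where fewer arrays were fitted. Without the block 0 members were called, the lowest adjusted p being 0.12 (Egr1). Between lines, none of 60 member results crossed the threshold. Of the 110 results for 11 called pathway genes, 87 kept their call and 23 lost it, all without the block or without a line.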

Other observations

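Among the 17 tested genes of the list of feedback inhibitors, 12 had a log2 difference above 0, as did 58.6% of all tested genes. Of these 12, 6 passed an unadjusted p under 0.05, as did 2 of those below 0. Over all tested genes 10.5% passed an unadjusted p under 0.05 and were higher. The genes named here were chosen after their values were seen. Dusp6, a cytoplasmic phosphatase of ERK, was at 10.14, 9.39 and 9.28 log2 intensity in Tamoxifen arrays of lines 14843, 14844 and 14846, against 9.28, 8.65 and 9.22 in Vehicle arrays. It was higher with Tamoxifen in lines 14843 and 14844 and nearly level in line 14846, with a fitted log2 difference of 0.55 ± 0.16 (SE) and a limma adjusted p of 0.11. Spry4, an inhibitor of Ras signalling, was at 8.38, 8.27 and 7.95 in Tamoxifen arrays, against 7.63, 8.09 and 7.71 in Vehicle arrays, with a difference of 0.39 ± 0.12 and an adjusted p of 0.13. Others of the same families went either way. Dusp4 gave 0.52 ± 0.21 with line 14844 at -0.08, and Dusp5 gave -0.08 ± 0.11 with line 14846 at -0.37. Spry1 gave 0.08 ± 0.05. Dusp16 and Dusp7, called above, fell in each line, with differences of -0.56 ± 0.08 and -0.48 ± 0.08. The activation marker Cd69 was higher with Tamoxifen in line 14843, by 1.03 on the log2 scale, with differences of 0.05 and -0.25 in lines 14844 and 14846.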
